A study of Arabidopsis thaliana with 4 samples.

Results

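The plant cuticle is the waxy skin of the shoot, and 49 Arabidopsis thaliana genes for its wax, its polyester cutin, their export and their control are described here, out of 33316 loci measured. They were chosen by locus from textbook roles in this pathway. This choice, and that of the other gene lists used below, was made with earlier results of these data known. The set holds all 21 KCS genes, 4 partners of fatty acid elongation and 5 genes of the wax branches. It also holds 11 genes of cutin synthesis, 3 of lipid export and 5 transcription factor genes. Polyadenylated RNA was sequenced from the lowest 1 cm of the inflorescence stem of mol1-1 plants and of wild-type (WT) plants, with 2 libraries per genotype. Both genotypes are in the Col-0 background, were raised in short days before a shift to long days, and were sampled at a height of 15 to 20 cm. MOL1 encodes a receptor-like kinase known to restrain cambium activity and radial growth of the stem. The labels do not say whether the libraries of a genotype came from separate pools of plants, so the p-values measure the spread between these libraries, which may be technical.

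Cuticle lipids are made in the epidermis. Very-long-chain acyl chains are built in the endoplasmic reticulum by an elongase complex, in which a 3-ketoacyl-CoA synthase (KCS) sets the chain length and its partner enzymes reduce and dehydrate the product. The chains then become alkanes, secondary alcohols and ketones in one wax branch, or primary alcohols and wax esters in the other. Cutin is instead assembled from hydroxylated fatty acids joined to glycerol, and ABCG transporters and lipid transfer proteins carry both kinds of lipid to the surface.

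Exon reads in named loci numbered 37059413 and 28570901 in the mol1-1 libraries and 30794836 and 28017346 in the WT libraries. MOL1 (AT5G51350) itself had 2.96 and 2.96 RPKM (exon reads per kilobase of exon and per 1000000 gene reads) in mol1-1, against 9.75 and 9.43 RPKM in WT (log2 ratio -1.66, SE 0.12, adjusted p 0.0217). The labels do not give the site of the mutation, so whether the counted exons hold the disrupted part is not known here, and the count does not tell a full-length from a shortened transcript. Log2 fold changes throughout are mol1-1 over WT, from edgeR's quasi-likelihood test on the exon reads of 19024 genes, with Benjamini-Hochberg adjustment over all of them and a threshold of 0.05.

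No wax or cutin gene passed the test in either direction, and most had lower values in mol1-1. Of the 49 genes, 42 had enough reads to be tested and 7 did not. Among all genes tested 0.2% passed, with 36 higher (0.189%) and 2 lower (0.0105%), and the smallest log2 fold changes that passed were 1.23 and -1.34. The most negative value among the 42 was -1.05 and the smallest adjusted p was 0.279, so all of the 42 except KCS12 lay within those bounds. At an unadjusted p under 0.05 there were 13 genes lower, against a background of 1.72% of all genes, and 1 gene higher, against 4.22%. DESeq2, which called 1.22% of all genes, and limma-voom, which called 0.173%, also called 0 of these genes. At an unadjusted p under 0.05, DESeq2 had 13 of 48 tested, against 4.32% of all genes, and limma-voom 14 of 42, against 5.65%. Of the 49 genes, edgeR tested 42 without WT replicate 1 and 46 with each other library left out. In edgeR, 5 genes were under that unadjusted p when WT replicate 1 was left out (3.02% of all genes) and 8 when WT replicate 2 was (5.12%). There were 20 when mol1-1 replicate 1 was left out (18.3%) and 12 when mol1-1 replicate 2 was (6.72%). Leaving out mol1-1 replicate 1 gave 4 calls, CER1, KCS2, ABCG11 and CER4, all lower, in a fit that called 2.1% of all genes. Leaving out WT replicate 2 gave 1, KCS12, which was higher, in a fit that called 0.456% of all genes.

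The direction was shared by much of the pathway. The log2 fold change was below 0 in 34 of the 42 genes (81%), against 52.2% of all genes tested. Its median was -0.29, or 81.9% of the WT level, against -0.01 over all genes. Both mol1-1 libraries lay below both WT libraries in 23 of the 42 (54.8%), against 21.3% of all genes tested, and above both in 3 (7.14%), against 13%. The other 16 overlapped. A filter on low reads decided which of the 49 genes are among the 42, so these counts describe the tested genes only. The 26 genes with at least 5 RPKM in WT had a median of -0.31, with 18 below both WT libraries, and the 16 tested genes under 5 RPKM had a median of -0.15. With each library left out in turn, the median of all tested wax and cutin genes was -0.47 to -0.35, over 42 to 46 genes. In bulk stem tissue, fewer epidermal cells and less RNA per epidermal cell cannot be told apart.

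**Figure D1:**
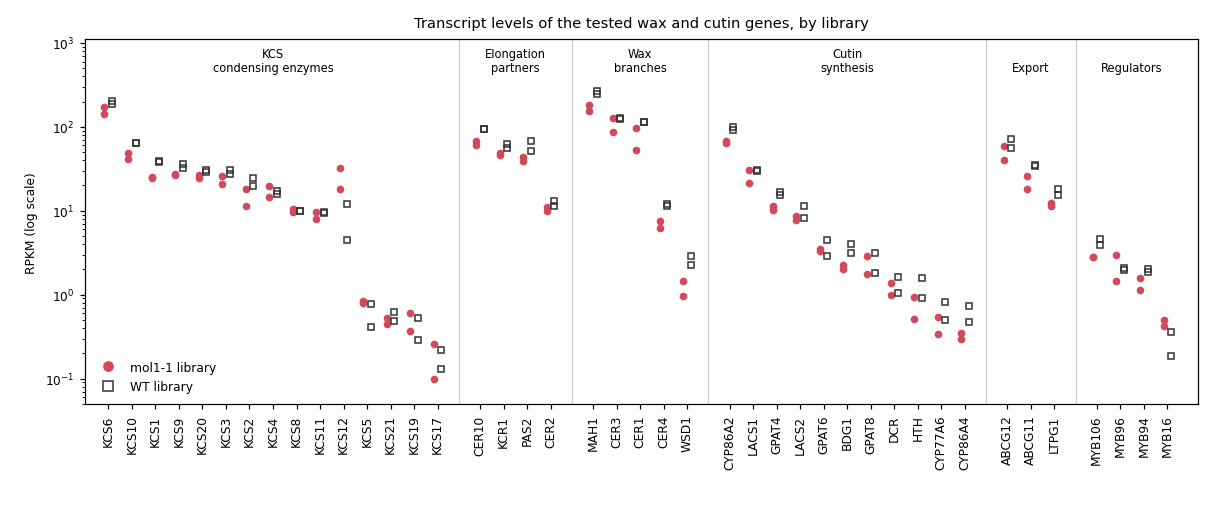
RPKM (log scale) of the 42 tested wax and cutin genes in each of the 2 mol1-1 libraries (filled circles) and the 2 WT libraries (open squares), grouped by role and ordered by WT level. MAH1 and KCS6 stand highest, and KCS12 is the gene whose mol1-1 libraries lie farthest above WT.

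Levels differed by several orders of magnitude between genes of the same pathway. On the RPKM scale, 4 genes averaged at least 100 in WT, 18 were between 10 and 100, 13 between 1 and 10, and 14 below 1. MAH1 (AT1G57750), the cytochrome P450 that makes secondary alcohols and ketones of stem wax, held 15.2% of the summed RPKM of the 49 genes in mol1-1 and 17.4% in WT. KCS6 (AT1G68530), the main condensing enzyme of stem wax, held 14.0% in mol1-1 and 13.1% in WT. CER3 (AT5G57800) and CER1 (AT1G02205), which together form alkanes, followed with 9.58% and 6.75% in mol1-1 and 8.46% and 7.64% in WT. By mean RPKM the order MAH1, KCS6, CER3, CER1, CYP86A2 (AT4G00360), CER10 (AT3G55360) and ABCG12 (AT1G51500) held at the top of both genotypes. In mol1-1 the libraries overlapped between neighbours in this order, except KCS6 from CER3 and CER10 from ABCG12. In WT each of the leading genes down to CYP86A2 was free of overlap with the one before it, while CYP86A2 and CER10 overlapped. The sum over all 49 genes was 1206 and 1029 RPKM in mol1-1, against 1487 and 1484 in WT.

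The 21 KCS genes encode the condensing enzymes that choose chain length, and their products feed cuticle wax, suberin, sphingolipids and seed oil. In WT 8 averaged at least 10 RPKM and 10 averaged under 1. Of 15 tested, 9 had a log2 fold change below 0, with a median of -0.14. Both mol1-1 libraries lay below both WT libraries in 7 and above them in 2, against 21.3% and 13% of all genes tested. With each library left out in turn, the KCS median was -0.30 to -0.16, over 15 to 19 genes.

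KCS1 (AT1G01120), which acts in stem wax synthesis and lies at chr1:57164-59215 on the minus strand of TAIR10.1, had the smallest p of the 49 genes. It had 25.4 and 24.9 RPKM in mol1-1, against 38.2 and 39.7 in WT, and the groups did not overlap. The log2 fold change was -0.60 (SE 0.12, p 0.00323, adjusted p 0.279). KCS10 (AT2G26250), known as FIDDLEHEAD and needed to keep epidermal surfaces from fusing, had 48.3 and 41.8 RPKM in mol1-1, against 63.6 and 63.7 in WT (log2 fold change -0.47, SE 0.15, adjusted p 0.624). The WT libraries differed little here and both mutant libraries lay below them. KCS9 (AT2G16280) had 26.8 and 27.6 RPKM in mol1-1, against 35.7 and 32.3 in WT (-0.29 on the log2 scale, SE 0.12, adjusted p 0.865). KCS6 had 171 and 142 RPKM in mol1-1, against 186 and 204 in WT, lower in both libraries (log2 fold change -0.28, SE 0.19, adjusted p 0.997). The ratio of difference to error was smaller for this most abundant condensing enzyme than for KCS1.

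KCS2 (AT1G04220) and KCS20 (AT5G43760) act together in wax and root suberin. KCS2 had 18.3 and 11.4 RPKM in mol1-1, against 19.5 and 24.5 in WT (log2 fold change -0.53, SE 0.27, adjusted p 0.937). Its log2 fold change was -0.96 without mol1-1 replicate 1 (adjusted p 0.0489), -0.21 without mol1-1 replicate 2 and -0.31 without WT replicate 2. A long noncoding RNA gene of the opposite strand overlaps it over 2302 bp. KCS20 had 26.9 and 24.8 RPKM in mol1-1, against 31.0 and 28.9 in WT (log2 fold change -0.18, SE 0.13). KCS3 (AT1G07720) had 20.6 and 25.8 RPKM in mol1-1, against 27.0 and 30.5 in WT, again without overlap (log2 fold change -0.29, SE 0.15).

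KCS12 (AT2G28630) had the largest log2 difference of the 42 tested genes, and its values were higher in mol1-1. The gene lies at chr2:12274468-12277417 on the minus strand of TAIR10.1. It had 18.1 and 31.9 RPKM in mol1-1, against 4.52 and 12.0 in WT, from 1313 and 1785 exon reads in mol1-1 and 273 and 660 in WT. The groups did not overlap, but both were wide, with the replicates of each genotype differing by more than those of KCS1 or KCS10. The log2 fold change was 1.61 (SE 0.49, p 0.0176, adjusted p 0.587), and it was 2.53 (SE 0.37, adjusted p 0.0288) without WT replicate 2, the WT library nearer the mutant. Without WT replicate 1 it was 1.05 (SE 0.33, adjusted p 0.700), without mol1-1 replicate 2 it was 1.18, and without mol1-1 replicate 1 it was 1.94. By mean RPKM it ranked 15 among the 49 genes in mol1-1 and 26 in WT.

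The other tested KCS genes gave overlapping groups or low levels. KCS4 (AT1G19440) had 14.4 and 19.9 RPKM in mol1-1 and 17.0 and 15.6 in WT, KCS8 (AT2G15090) stayed between 9.63 and 10.5 RPKM in all 4 libraries, and KCS11 (AT2G26640) between 7.88 and 9.79. KCS5 (AT1G25450), the closest relative of KCS6, had 0.804 and 0.830 RPKM in mol1-1, against 0.769 and 0.413 in WT (log2 fold change 0.50, SE 0.39). KCS6 thus exceeded KCS5 in RPKM by a factor of 172 to 494 over the 4 libraries. KCS17 (AT4G34510), KCS19 (AT5G04530) and KCS21 (AT5G49070) lay between 0.0981 and 0.629 RPKM. KCS7 (AT1G71160), KCS13 (AT2G46720), KCS14 (AT3G10280), KCS15 (AT3G52160), KCS16 (AT4G34250) and KCS18 (AT4G34520) had too few reads to be tested and lay at or below 0.347 RPKM in every library. KCS18, known as FAE1, the elongase of seed oil, was at 0 in 3 of the 4 libraries. Of the exon reads of KCS14, 10.7% were unique, so its level is uncertain.

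The elongase partners had lower values in mol1-1 without overlap in all 4 genes, against 21.3% of all genes tested. Their median log2 fold change was -0.38. CER10, the enoyl-CoA reductase that completes each elongation cycle, had 67.5 and 60.2 RPKM in mol1-1, against 94.5 and 95.04 in WT (log2 fold change -0.54, SE 0.14, p 0.00997, adjusted p 0.482). PAS2 (AT5G10480), the dehydratase, had 43.6 and 39.4 RPKM in mol1-1, against 67.6 and 51.1 in WT (-0.48, SE 0.17, adjusted p 0.699). KCR1 (AT1G67730), the ketoacyl reductase, had 49.2 and 46.2 RPKM in mol1-1, against 62.7 and 56.6 in WT (-0.29, SE 0.13, adjusted p 0.902). These core subunits are not restricted to one KCS, and none of the 3 overlapped between genotypes. CER2 (AT4G24510), which lets KCS6 reach the longest stem wax chains, had 10.99 and 9.82 RPKM in mol1-1, against 11.3 and 13.0 in WT (-0.19, SE 0.16).

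In the wax branches the log2 fold change was below 0 in all 5 genes, against 52.2% of all genes tested, with a median of -0.57. In 4 of the 5 both mol1-1 libraries lay below both WT libraries, against 21.3% of all genes. MAH1 had 184 and 156 RPKM in mol1-1, against 267 and 249 in WT (-0.57 on the log2 scale, SE 0.18, p 0.0186, adjusted p 0.598). This was the largest difference in RPKM among the 49 genes. CER4 (AT4G33790), the reductase that makes primary alcohols, had 7.63 and 6.30 RPKM in mol1-1, against 11.9 and 11.4 in WT (-0.70, SE 0.16, p 0.00458, adjusted p 0.321). WSD1 (AT5G37300), the wax ester synthase downstream of CER4, had 1.46 and 0.959 RPKM in mol1-1, against 2.90 and 2.27 in WT (-1.05, SE 0.30, p 0.0146, adjusted p 0.540). It had the most negative log2 fold change of the tested genes, at a low level. With each library left out in turn, the median of the branch genes was -0.89 to -0.43.

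CER1 and CER3 differed between the mutant libraries. CER1 had 98.2 and 52.6 RPKM in mol1-1, against 113 and 114 in WT, so mol1-1 replicate 2 was far below the other 3 libraries (log2 fold change -0.55, SE 0.31, adjusted p 0.976). CER3 had 126 and 87.7 RPKM in mol1-1, against 123 and 128 in WT, and only replicate 2 was low (-0.20, SE 0.23, adjusted p 0.997). The log2 fold change of CER1 was -1.11 (SE 0.18, adjusted p 0.0267) without mol1-1 replicate 1 and -0.15 (SE 0.18, adjusted p 0.972) without mol1-1 replicate 2. MAH1 and CER4, of opposite wax branches, had a ratio of RPKM between 21.9 and 24.7 in all 4 libraries. Other such ratios varied more, with CER1 over CER4 at 8.36 to 12.9 and MAH1 over CER1, of the same branch, at 1.87 to 2.96.

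**Figure D2:**
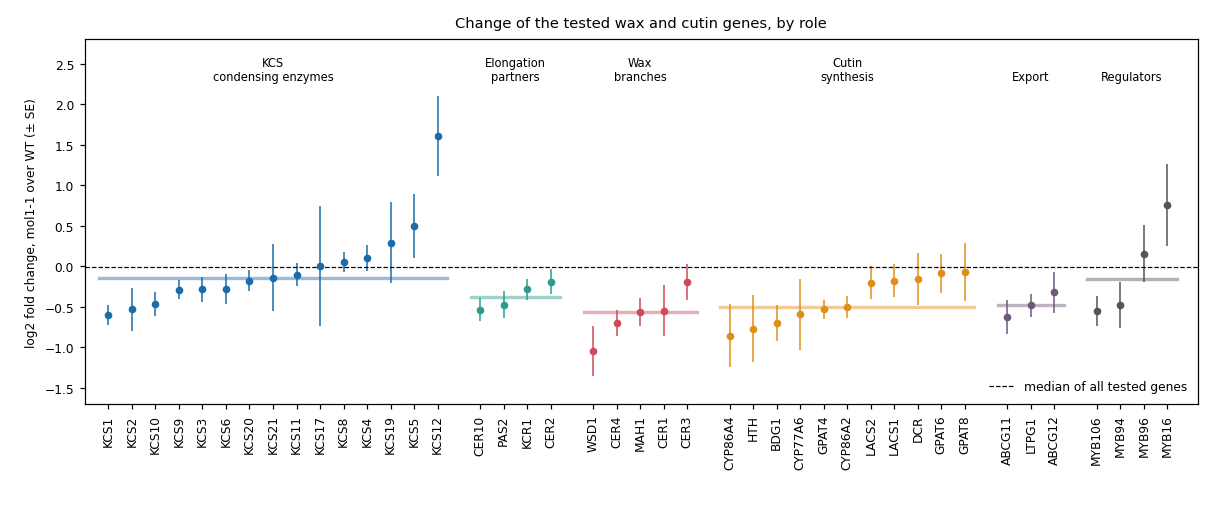
Log2 fold change (mol1-1 over WT, ± SE, 2 libraries each) of the 42 tested wax and cutin genes by role, with the median of each role as a thick line and the median of all tested genes dashed. Medians run from -0.57 in the wax branches to -0.14 in the KCS family, where KCS12 lies at 1.61.

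All 11 cutin genes had a log2 fold change below 0, against 52.2% of all genes tested, with a median of -0.51. In 4 of the 11 both mol1-1 libraries lay below both WT libraries, against 21.3% of all genes. CYP86A2, which hydroxylates the end of the fatty acid chain, was the most abundant of the 11. It had 64.7 and 67.2 RPKM in mol1-1, against 99.5 and 92.1 in WT. Its log2 fold change was -0.51 (SE 0.14, p 0.0106, adjusted p 0.484), and a noncoding RNA gene of the opposite strand overlaps it over 782 bp. GPAT4 (AT1G01610), which joins acyl chains to glycerol in stem and leaf cutin, had 10.3 and 11.5 RPKM in mol1-1, against 16.8 and 15.4 in WT (-0.54, SE 0.12, p 0.00448, adjusted p 0.320). Both genes had tight replicates, and in each the mutant libraries lay together below WT. BDG1 (AT1G64670), an extracellular hydrolase-fold protein needed for cuticle formation, had 2.28 and 2.01 RPKM in mol1-1, against 4.03 and 3.15 in WT (-0.70, SE 0.22, p 0.0189, adjusted p 0.599).

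GPAT8 (AT4G00400), which shares the role of GPAT4 in stems and leaves, had 1.77 and 2.85 RPKM in mol1-1 and 1.81 and 3.11 in WT, with the groups interleaved (log2 fold change -0.07, SE 0.36). GPAT4 exceeded it in RPKM by a factor of 4.03 to 9.32. GPAT6 (AT2G38110), known for floral cutin, had 3.50 and 3.30 RPKM in mol1-1 and 4.52 and 2.89 in WT. CYP86A4 (AT1G01600), another floral cutin hydroxylase that lies next to GPAT4 on chromosome 1, had 0.295 and 0.350 RPKM in mol1-1, against 0.723 and 0.470 in WT (-0.86, SE 0.39, adjusted p 0.902). Its level was low and CYP86A2 exceeded it by a factor of 138 to 220. HTH (AT1G72970), an oxidoreductase-like enzyme acting on hydroxylated fatty acids, had 0.519 and 0.930 RPKM in mol1-1, against 1.59 and 0.914 in WT (-0.77, SE 0.41, adjusted p 0.949). Here mol1-1 replicate 2 lay just above WT replicate 2.

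The acyl-activating enzymes of the pathway showed no separation. LACS1 (AT2G47240) had 30.2 and 21.5 RPKM in mol1-1 and 29.5 and 30.4 in WT (log2 fold change -0.18, SE 0.20), with only mol1-1 replicate 2 low. LACS2 (AT1G49430), which activates cutin precursors, had 8.77 and 7.76 RPKM in mol1-1 and 8.18 and 11.3 in WT (-0.20, SE 0.20). CYP77A6 (AT3G10570), a mid-chain hydroxylase of floral cutin, and DCR (AT5G23940), an acyltransferase, lay between 0.336 and 1.62 RPKM with overlapping groups.

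Of the 3 export genes, 2 had both mol1-1 libraries below both WT libraries, against 21.3% of all genes tested. Over all 3 export genes, log2 fold changes had a median of -0.48. ABCG11 (AT1G17840), a transporter of both wax and cutin, had 26.0 and 18.1 RPKM in mol1-1, against 34.3 and 35.4 in WT (log2 fold change -0.63, SE 0.21, p 0.0258, adjusted p 0.665). Of its exon reads 90.4% were unique, and a gene of the opposite strand overlaps it over 596 bp. LTPG1 (AT1G27950), a lipid transfer protein anchored at the plasma membrane, had 11.3 and 12.4 RPKM in mol1-1, against 18.3 and 15.6 in WT (-0.48, SE 0.15, p 0.0166, adjusted p 0.576). ABCG12, known as CER5 and the partner of ABCG11 in wax export, had 59.9 and 40.2 RPKM in mol1-1, against 56.3 and 71.9 in WT (-0.32, SE 0.25, adjusted p 0.997). Its groups overlapped, since mol1-1 replicate 1 exceeded WT replicate 1. Without mol1-1 replicate 1, ABCG11 stood at -0.96 on the log2 scale (SE 0.15, adjusted p 0.0260), and without mol1-1 replicate 2 at -0.37 (SE 0.15, adjusted p 0.696). For ABCG12 the values were -0.68 without mol1-1 replicate 1, -0.044 without mol1-1 replicate 2, and -0.52 and -0.089 with WT replicates 1 and 2 left out in turn.

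The regulators were expressed at a few RPKM or less and had no common direction, with a median log2 fold change of -0.16 that was -0.023 without mol1-1 replicate 1 and -0.33 without mol1-1 replicate 2. MYB106 (AT3G01140), which with MYB16 (AT5G15310) controls cutin genes and trichome shape, had 2.82 and 2.79 RPKM in mol1-1, against 4.57 and 3.87 in WT (log2 fold change -0.55, SE 0.19, p 0.0257, adjusted p 0.665). Only 12.6% of its exon reads were unique, and a long noncoding RNA gene of the opposite strand, AT3G01142, overlaps it over 1579 bp. With unique reads alone its log2 fold change was -0.78 (SE 0.51). MYB94 (AT3G47600), an activator of wax genes, had 1.57 and 1.14 RPKM in mol1-1, against 2.04 and 1.84 in WT (-0.48, SE 0.29, adjusted p 0.992). Its relative MYB96 (AT5G62470) had 1.46 and 2.97 RPKM in mol1-1 and 2.08 and 1.95 in WT, so the mutant libraries lay on either side of WT (0.15, SE 0.35, adjusted p 0.997). MYB16 had 0.421 and 0.494 RPKM in mol1-1, against 0.361 and 0.185 in WT (0.76, SE 0.51). SHN1 (AT1G15360), an activator of wax and cutin synthesis, had no read in any library.

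The 2 mutant libraries were on the same side of the WT mean for most of the pathway, and differed in size for many of its genes. As a percent of the WT mean RPKM, the median gene stood at 77.3% in mol1-1 replicate 1 and 73.7% in replicate 2, against 95.7% and 99.04% over all genes tested. Both mutant libraries were below 100% in 30 of the 42 genes (71.4%), against 35.0% of all genes, both were above in 3, and 9 were mixed. The wax branches stood at 71.3% and 54.2% in mol1-1 replicates 1 and 2, cutin at 67.6% and 74.3%, and export at 74.5% and 62.8%. By these medians replicate 2 was the lower one for wax and export, and replicate 1 for cutin. Single genes went the other way, namely LTPG1 of export and LACS1, LACS2, GPAT6 and BDG1 of cutin.

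**Figure D3:**
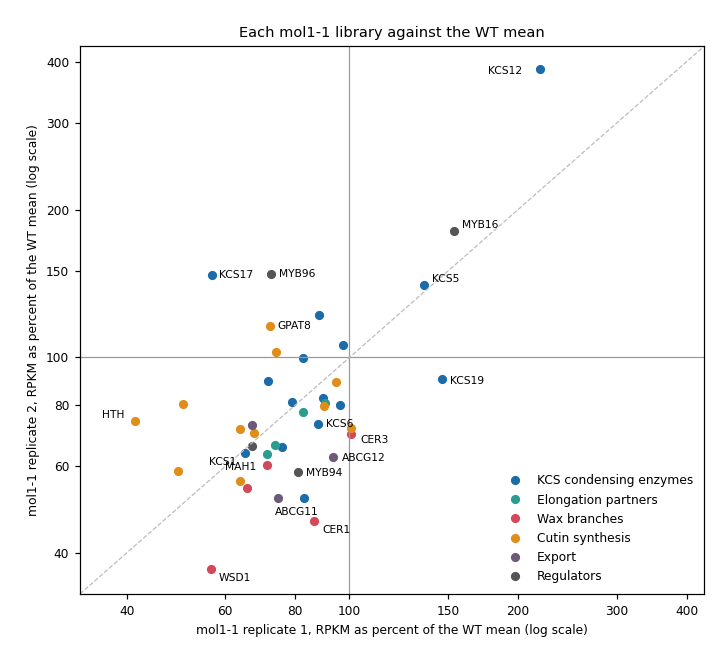
RPKM of each of the 42 tested wax and cutin genes as a percent of its WT mean, in mol1-1 replicate 1 (x axis) against mol1-1 replicate 2 (y axis), both on log scales and coloured by role, with grey lines at 100% and a dashed line of equality. In the lower left area are 30 genes, below 100% in both libraries, and CER1 and WSD1 lie farther below 100% in replicate 2.

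Promoters are shown for 3 of the 4 genes whose mol1-1 libraries both lay below WT and that hold an L1 box, the element bound by the epidermal factors ATML1 and PDF2, and for KCS12, whose values were higher. The fourth, MYB94, is shown as a shorter stretch beside MYB96. The L1 box was searched as TAAATGCA or TAAATGTA and the GCC box, bound by factors of the ethylene response family, as GCCGCC, both on either strand, in 300-base windows of 250 bases before and 50 after each annotated gene start. Neither motif is contained in the other. Sequences are from the RefSeq annotation of TAIR10.1, 5′ to 3′, with the 250 bases before the gene start printed and the L1 box in capitals. KCS9 lies at chr2:7050549-7050798, plus strand, KCS10 at chr2:11173279-11173528, minus strand, ABCG11 at chr1:6142152-6142401, plus strand, and KCS12 at chr2:12277418-12277667, minus strand.
KCS9: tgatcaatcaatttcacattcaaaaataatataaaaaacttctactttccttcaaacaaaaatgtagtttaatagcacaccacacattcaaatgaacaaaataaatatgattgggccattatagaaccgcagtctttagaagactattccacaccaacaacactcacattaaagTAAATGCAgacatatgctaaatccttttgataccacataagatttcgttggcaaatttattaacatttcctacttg
KCS10: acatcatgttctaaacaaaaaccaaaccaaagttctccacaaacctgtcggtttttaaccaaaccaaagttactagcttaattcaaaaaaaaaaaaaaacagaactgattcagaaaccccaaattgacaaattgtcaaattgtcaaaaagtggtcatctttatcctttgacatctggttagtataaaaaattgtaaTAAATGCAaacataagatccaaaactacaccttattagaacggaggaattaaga
ABCG11: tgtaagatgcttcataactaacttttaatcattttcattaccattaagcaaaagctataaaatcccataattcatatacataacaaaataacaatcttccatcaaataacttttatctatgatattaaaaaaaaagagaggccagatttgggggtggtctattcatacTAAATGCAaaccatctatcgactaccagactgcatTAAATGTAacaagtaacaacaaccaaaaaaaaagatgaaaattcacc
KCS12: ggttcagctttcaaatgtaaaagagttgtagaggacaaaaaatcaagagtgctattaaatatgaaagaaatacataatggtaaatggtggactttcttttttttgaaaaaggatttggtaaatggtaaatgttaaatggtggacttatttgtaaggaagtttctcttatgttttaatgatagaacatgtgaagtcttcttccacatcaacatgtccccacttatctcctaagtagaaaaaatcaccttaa

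KCS9 holds its L1 box at -76 from the gene start, KCS10 at -54, and ABCG11 holds 2, at -82 and -47. The KCS12 window holds neither motif. The wax regulators MYB94 and MYB96 both hold an L1 box, at -165 and -24, within a stretch shared between them. Around the box 46 of 48 bases are identical (95.8%) between MYB94 (chr3:17541449-17541496, minus strand) and MYB96 (chr5:25081142-25081189, minus strand).
MYB94: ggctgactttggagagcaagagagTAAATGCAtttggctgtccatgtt
MYB96: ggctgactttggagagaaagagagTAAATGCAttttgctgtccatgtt

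The L1 box was present in 8 of the 49 promoters (16.3%), against 1399 of 27443 promoters of protein-coding genes (5.1%). Among the 23 genes with both mol1-1 libraries below WT, 4 held one (17.4%), namely KCS9, KCS10, ABCG11 and MYB94, and among all 42 tested genes 7 did (16.7%). The other 4 were KCS18, MYB96, GPAT8 and ABCG12. The share among genes lower in both mutant libraries was near that of the tested genes as a whole. The GCC box was present in 1 of the 49 (2.04%), the promoter of GPAT6, against 706 of all (2.57%). These matches describe letters in a window and were not tested for binding.

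Of 20 other cuticle genes, 14 were tested and 0 passed in edgeR, with a median log2 fold change of -0.10. Of the 14, 10 were below 0, against 52.2% of all genes tested. At an unadjusted p under 0.05, 1 was higher (4.22% of all genes) and 2 were lower (1.72%). DESeq2 tested 19 and called 2, LTPG2 and DEWAX, in a fit that called 1.22% of all genes. Of the 14 tested in limma-voom, 0 were called. With no filter on low counts, edgeR tested 19 and called 1, LTPG2 (adjusted p 0.0450), against 0.611% of all genes. A crossed replicate block, chosen after seeing the data, called 3 of 14, against 1.3% of all genes. LTPG2 (AT3G43720), the partner of LTPG1 in wax export, had 11.4 and 11.2 RPKM in mol1-1, against 22.2 and 21.4 in WT (log2 fold change -0.91, SE 0.13, p 0.000506, adjusted p 0.0996 in edgeR and 0.00643 in DESeq2). DEWAX (AT5G61590), an ERF-type repressor of wax genes that is induced in the dark, had 221 and 226 RPKM in mol1-1, against 107 and 132 in WT (0.94, SE 0.17, p 0.00169, adjusted p 0.190 in edgeR and 0.000281 in DESeq2). Both had tight mutant replicates that lay apart from WT, in opposite directions. LTL1 had 37.0 and 49.5 RPKM in mol1-1, against 78.8 and 60.3 in WT (-0.65, SE 0.19, adjusted p 0.540). Without mol1-1 replicate 1 or 2, LTPG2 had an adjusted p of 0.0267 or 0.0453 in edgeR, and DEWAX 0.0576 or 0.0866. Without WT replicate 1 or 2 it was 0.368 or 0.284 for LTPG2 and 1.00 or 0.248 for DEWAX.

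Markers of the epidermis, where the cuticle is made, also had lower values in mol1-1. Of 11 markers, 9 were tested, all 9 had a log2 fold change below 0, and 7 of the 9 had both mol1-1 libraries below both WT libraries, against 21.3% of all genes tested. With every library used, their median was -0.47 and 0 passed in edgeR or limma-voom. DESeq2 tested all 11 and 0 passed. At an unadjusted p under 0.05 in edgeR 1 was lower, against 1.72% of all genes. Without WT replicate 1, 9 were tested, and with each other library left out all 11 markers were, PDF1 among them. In some of these fits the count of markers that passed was above 0. The summed RPKM of the 11 markers was 47.8 and 31.5 in mol1-1, against 59.8 and 53.3 in WT. None of the 11 was at 0 in any library. PDF1, which was not among the 9, had 0.150 and 0.166 RPKM in mol1-1, against 2.47 and 0.169 in WT, so WT replicate 1 alone was high. HDG1, an epidermal homeodomain gene, had 3.12 and 2.99 RPKM in mol1-1, against 4.54 and 4.42 in WT (-0.52, SE 0.14, adjusted p 0.489). PDF2 had 4.16 and 2.97 RPKM in mol1-1, against 5.08 and 5.08 in WT (-0.47, SE 0.20, adjusted p 0.883). The marker median was -0.78 without mol1-1 replicate 1 and -0.22 without mol1-1 replicate 2, against -0.47 and -0.35 for the wax and cutin genes. As a percent of the WT mean, the median marker stood at 85.9% in mol1-1 replicate 1 and 58.4% in replicate 2. The part of these markers in the values of the wax and cutin genes was not tested.

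Every tested marker of the other stem tissues overlapped between genotypes, as did 12492 of all 19024 genes tested. The 7 xylem and fibre markers stood at a median of 114% and 77.5% of the WT mean in mol1-1 replicates 1 and 2, against 86.1% and 114% in WT replicates 1 and 2. The 4 phloem markers stood at 98.96% and 84.4% in mol1-1, the 3 cambium markers at 97.7% and 104%, and the 4 photosynthetic markers at 96.6% and 134%. No marker of these lists, or of the 2 for the starch sheath, passed in edgeR, DESeq2 or limma-voom. In edgeR 0 of them were at an unadjusted p under 0.05, against 5.94% of all genes tested.

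**Figure D4:**
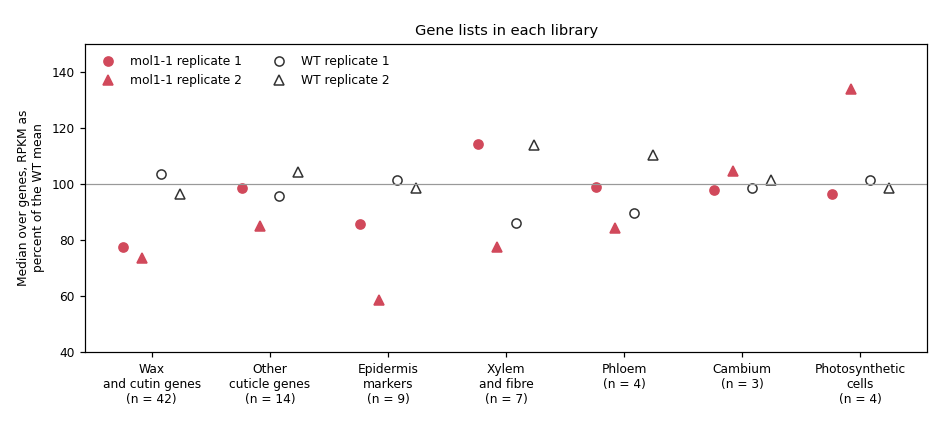
Median over the tested genes of each list of RPKM as a percent of the WT mean, in mol1-1 replicates 1 and 2 (filled) and WT replicates 1 and 2 (open). Wax and cutin genes stand at 77.3% and 73.7% in the mol1-1 libraries and epidermis markers at 85.9% and 58.4%, while xylem and fibre markers stand on both sides of 100% in either genotype.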

How the data were processed

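The 4 RNA-seq libraries are from stem bases, 2 of mol1-1 and 2 of WT. The authors deposited, per the file headers, read counts per locus (total and unique reads in exons and genes, junction and intron reads) and RPKM values. The deposited RPKM scale total exon reads by exon length and by 1000000 gene reads. The submitters' processing notes name TAIR10, and no source used here gives the aligner, the counting program or the use of strand. Without known strand use, 10 members overlapped by genes of the opposite strand (by 9 to 2302 bp in TAIR10.1) cannot be told apart from them.

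The 5 rows without a locus (0.0586% to 0.0864% of exon reads) were left out and 2 repeated loci were summed. Symbols came from RefSeq's TAIR10.1 table, which matched 32828 loci. The files hold no coordinates, so promoter positions are those of TAIR10.1. The test on exon reads was that of edgeR 4.0.16 under R 4.3.3 (filterByExpr, TMM, quasi-likelihood, no covariate), and an SE is the log2 fold change divided by the square root of F. The common biological coefficient of variation was 16.5%. A chi-square test between replicates gave 62.3 per degree of freedom in mol1-1 and 28.9 in WT, above sampling noise, and each library counted as 1 sample.

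Members, roles and lists were chosen with earlier results of these data known. Named genes are members that pass, the 20 with the smallest p, the 2 most abundant per role, and from each other list those that pass and the 2 with the smallest p. Others named with values were chosen after these were seen. Alternatives were DESeq2 1.42.0, limma-voom (limma 3.58.1), other scalings and filters, unique exon or gene reads, a replicate block and each library left out. The scripts were tested on simulated data.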

Additional observations from a re-analysis of the deposited data

How the results depend on the processing

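The count of wax and cutin genes that passed was 0 under DESeq2, limma-voom, 3 other scalings, 2 other filters, unique reads and gene reads, and ranged from 0 to 4 with each library left out in turn. The replicate numbers are not said to pair the libraries. Over the tested genes, the difference between replicates 1 and 2 was weakly and negatively correlated between the genotypes (correlation -0.238). With a replicate block 1 gene passed, KCS12 (log2 fold change 1.73, adjusted p 0.0111), and 136 of all genes (0.715%). A crossed block, chosen after seeing the data, gave 0 and 248. The count over all genes was 281 in DESeq2 and 141 with no filter, and 37 to 409 with each library left out. The median log2 fold change of the wax and cutin genes was -0.39 in DESeq2, -0.40 with no filter and -0.33 with a filter at 1 CPM in 2 libraries, and -0.47 to -0.35 with each library left out. For KCS it was -0.28, -0.29 and -0.24 under the same 3 settings, and for cutin and the regulators -0.36 and -0.48 at 1 CPM. More or fewer low-count genes enter those medians. With each library left out the median was -0.30 to -0.16 for KCS, -0.48 to -0.30 for the elongase partners, -0.89 to -0.43 for the wax branches, -0.52 to -0.43 for cutin, -0.68 to -0.37 for export and -0.33 to -0.023 for the regulators. The median of all genes was -0.022 to 0.0086, above 0 at 0.0019 without WT replicate 1 and 0.0086 without WT replicate 2.

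Over 806 fits of 58 named genes, 762 kept direction and side of the threshold, 11 newly passed, and 33 in 20 genes changed sign, none of which had passed. KCS17 was -0.11 in limma-voom, -0.0085 with upper-quartile scaling, -0.027 with no scaling, -0.0024 with unique reads and -0.041 with a replicate block. With each library left out in turn, the log2 fold changes that changed sign ranged, by gene, over KCS4 -0.12 to 0.28, KCS17 -0.75 to 0.54, KCS19 -0.15 to 0.82, KCS21 -0.35 to 0.11, CER3 -0.53 to 0.066, LACS1 -0.49 to 0.068, LACS2 -0.45 to 0.093, GPAT6 -0.33 to 0.24, GPAT8 -0.44 to 0.42, DCR -0.39 to 0.15, MYB96 -0.41 to 0.56, ABCG2 -1.81 to 0.22, IRX1 -0.64 to 0.18, NST1 -0.091 to 0.36, SEOR1 -0.32 to 0.037, CALS7 -0.80 to 0.045, PXY -0.027 to 0.13, ATHB-8 -0.40 to 0.11, CAB1 -0.10 to 0.67 and SCR -0.37 to 0.039. The cause was not tested. With 2 libraries per genotype, no log2 fold change between -1.34 and 1.23 passed in the main edgeR fit, where 2 genes were called lower, MOL1 among them. DESeq2 on the same libraries called LTPG2 at -0.91 and DEWAX at 0.94, so those bounds are not a limit of detection. Genes under 1 RPKM rest on few reads. Where a fit leaves 1 library of a genotype, its spread is taken from the other genotype.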

Other observations

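Genes of suberin, the waxy polyester of roots and bark made by related enzymes, had low levels in these stems. Of 10 suberin genes 2 were tested in edgeR and in limma-voom and 7 in DESeq2, and 0 passed in any of these. In edgeR 0 were at an unadjusted p under 0.05, against 5.94% of all genes tested. ABCG20 had 4.62 and 4.49 RPKM in mol1-1, against 5.24 and 5.41 in WT (log2 fold change -0.19, SE 0.13). ABCG2 had 0.471 and 0.139 RPKM in mol1-1, against 0.708 and 0.269 in WT (-0.60, SE 0.70), and 0.78% of its reads were unique. GPAT5, FAR4 and ABCG6 had no read in any library.

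Among genes beside the pathway, MIEL1, a ubiquitin ligase that targets the wax activators MYB30 and MYB96, had 52.2 and 57.5 RPKM in mol1-1, against 44.98 and 47.98 in WT (0.27, SE 0.13, adjusted p 0.932). KCR2, the second ketoacyl reductase gene, had 6.40 and 7.85 RPKM in mol1-1, against 4.39 and 6.20 in WT (0.45, SE 0.24), while KCR1 was lower in value. KCR1 exceeded KCR2 by a factor of 7.68 and 5.89 in mol1-1, against 14.3 and 9.13 in WT. SHN3, a relative of SHN1, had 3.49 and 2.84 RPKM in mol1-1, against 5.10 and 4.29 in WT (-0.53, SE 0.23, adjusted p 0.895).

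In the inner tissues, IRX1, a cellulose synthase of secondary walls, had 647 and 383 RPKM in mol1-1 and 519 and 666 in WT, and NST1, a fibre regulator, had 53.6 and 41.0 RPKM in mol1-1 and 41.3 and 45.7 in WT. CALS7 and SEOR1 of the phloem had log2 fold changes of -0.31 and -0.13, ATHB-8 and PXY of the cambium -0.12 and 0.05, CAB1 and LHCA1 of photosynthetic cells 0.34 and 0.27, and SCR and SHR of the starch sheath -0.19 and 0.05.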
